A study of Mus musculus with 2 samples.

Results

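The genes described here encode the axon guidance ligands and receptors: Eph receptors and ephrins, semaphorins with plexins and neuropilins, Slits with Robo receptors, and netrins with the receptors DCC and neogenin. Members were taken by a rule on gene names that uses no measured value, though the rule was chosen with earlier results of these data known. The rule found 66 genes on 97 probes, of 34648 gene names on 55677 probes on the array, and all 66 RefSeq symbols that fit the name pattern were present. Expression was measured in CMT93 cells, an established mouse carcinoma line of the rectum from a C57BL/ICRF animal whose age is labelled as 19 months. There were 2 groups of 1 one-colour Agilent array each: untreated control cells, and cells exposed to lipopolysaccharide (LPS), a glycolipid of the Gram-negative outer membrane, at 3 µg/mL for 24 h. Both groups are the same cell line grown in DMEM, and the labels name no genetic change. The comparison addresses which transcripts differ between LPS-stimulated and unstimulated colon carcinoma cells.

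Guidance molecules were named for steering growing nerve fibres, and they also act in epithelia, vessels and immune tissue. Ephrins are tethered to the membrane and signal with Eph receptor tyrosine kinases at cell contacts, in both cells at once; in the intestinal crypt, EphB receptors and B-type ephrins keep proliferating and differentiated cells in their zones. Semaphorins signal through plexins, and most secreted class 3 semaphorins need a neuropilin as co-receptor. Slits bind Robo receptors, and netrins bind DCC, neogenin and UNC5 receptors.

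With 1 array a group there was no replicate and no test, so each difference below compares 2 arrays and not the conditions. A level is the processed intensity of the brightest probe of a gene. A difference is LPS minus control on the log2 scale after each array was set to its 75th percentile. The error after ± is the SD of that difference over repeated spots of probes of similar brightness (245 probes, with a median of 10 spots). Over 4 brightness bins it was 0.13 in the dimmest and 0.03 in the brightest, reached 0.50 for single dim probes, and covers the slide but not the cultures. A gene was called measured where Feature Extraction marked its probe as well above background on each of the 2 arrays. A gene was called changed in size at 2-fold or more. Some values are also given with normexp, another background correction, which here adds an offset of 50 to every intensity. That offset by itself draws the differences and bounds of dim probes towards no change and hardly moves those of bright probes. Fewer expressing cells and less RNA per cell cannot be told apart in such bulk RNA.

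The sequences of the probes behind the differences are given first, since each gene's value rests on 1 or 2 of them. Each line is the beginning of a probe, 30 of its 60 bases, read 5′ to 3′ in the sense of the transcript, with its mm9 position. Below are the probes of the genes that differed by 2-fold or more and of those whose bound reached 2-fold.
Sema7a, chr9:57810607-57810666, plus strand: tcccttatctcttctcaatgcactttaata
Sema3c, brighter probe, chr5:17235981-17236040, plus strand: ccctgtgtagagaaagcaaactagatgtag
Sema3c, second probe, chr5:17234078-17234137, plus strand: acgtaaagtcaagagtgactcataaagagc
Plxnb3, chrX:71017572-71017631, plus strand: aaagtgactgacctgtgaactagggccaca
Robo3, chr9:37224780-37224839, minus strand: gattcatgcatctggtcaacattgaaattg
Ntn5, chr7:52947753-52949386, plus strand: tgcacatgagccttcagagatactgtcagc
None of these 6 probes shared a run of 20 bases with a probe of another gene name. The Ntn5 coordinates span 1634 bases for a probe of 60, so its parts lie apart in the genome.

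The sequences of another 5 member probes set limits on what their signal means. These probes hold a tandem repeat, defined as a unit of 1 to 3 bases repeated over 20 bases or more. They are the brightest probes of Epha5, Ephb3, Sema4c, Sema6d and Dcc. The 30 bases that hold the repeat, or its first 30 bases for Ephb3, are shown with the repeat in capitals.
Epha5, bases 22 to 51, chr5:84487348-84487407, minus strand: acatcgaaatTGTGTGTGTGTGTGTGTGTG
Ephb3, bases 28 to 57, chr16:21223165-21223224, plus strand: TGTGTGTGTGTGTGTGTGTGTGTGTGTGTG
Sema4c, bases 1 to 30, chr1:36605998-36606057, minus strand: aaTGTGTGTGTGTGTGTGTGTGTGTtgtaa
Sema6d, bases 31 to 60, chr2:124491609-124491668, plus strand: agaggggcgaGTGTGTGTGTGTGTGTGTGT
The repeat ran over 20 bases in the Epha5 and Sema6d probes, 23 in Sema4c and 33 in Ephb3. Runs of 20 bases were shared with 48 probes of other names for Epha5, 50 for Sema6d, 51 for Ephb3 and 53 for Sema4c.

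Repeat probes were bright across the array. Of 160 probes with such a repeat, 159 (99.4%) were well above background on both arrays, against 28895 of 55517 other probes (52.0%). Their median intensity on the control array was 14847.7, against 28.9 for the others. The Dcc probe, not printed here, holds a GAA repeat over 51 bases, shares runs of 20 bases with 42 probes of other names, and lies on chromosome 7 by its mm9 position, whereas RefSeq places Dcc on chromosome 18. The further probes of Dcc, Epha5 and Sema6d hold no such repeat, and all of them (2, 2 and 1 probes) were well above background on neither array. Ephb3 and Sema4c have no further probe. The levels of these 5 genes are therefore printed as signals of their probes, and whether those signals come from the named transcripts was not tested. None of the 5 differed between the arrays by more than 0.16.

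**Figure D1:**
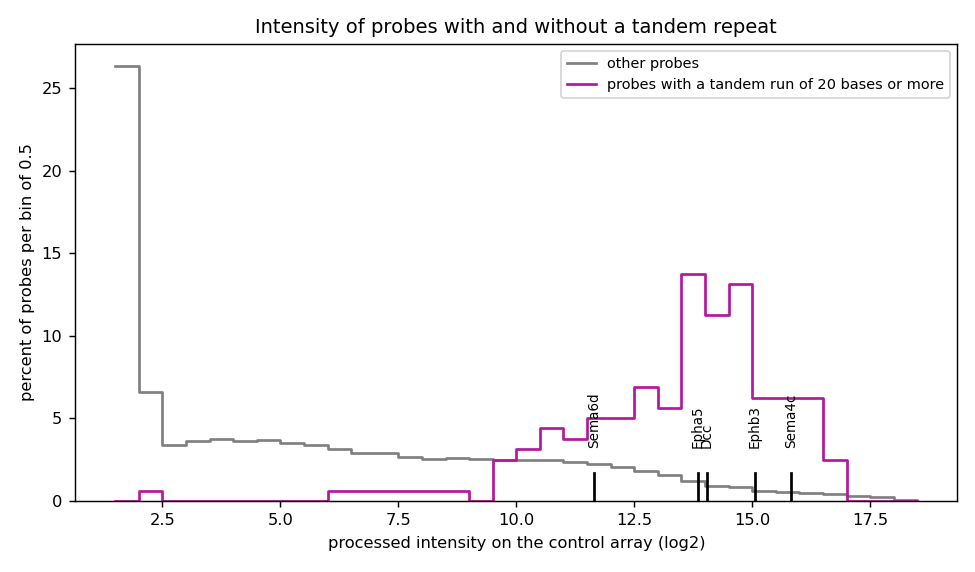
Share of probes (percent, vertical axis) in each bin of 0.5 of log2 processed intensity on the control array (horizontal axis), for the 160 probes with a tandem repeat of 20 bases or more and the 55517 others; black ticks mark the 5 guidance gene probes with a repeat. The repeat probes lie to the right of most others, with a median intensity of 14847.7 against 28.9, and the 5 guidance probes lie between 3191 (Sema6d) and 58328 (Sema4c).

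Of the 66 guidance genes, 49 (74.2%) were measured on both arrays, against 58.7% of all gene names on the array. Those names include probe names, clone accessions and genomic intervals as well as named genes. Shares over all gene names or all measured genes, here and below, thus describe a mixed set unlike the guidance genes. Another 3 guidance genes (Robo3, Ntn5 and Sema6a) passed the background mark with control RNA alone, none with LPS RNA alone, and 14 with neither. Leaving out the repeat probes, 44 were measured. The 14 without signal were Epha3, Epha6, Epha7, Epha8, Ephb1, Sema3d, Plxna4, Plxnc1, Slit2, Slit3, Robo1, Robo2, Robo4 and Ntn1. All 8 ephrins and 18 of 20 semaphorins were measured, against 1 of 3 Slits and none of 4 Robo receptors. The 18 include Sema4c and Sema6d, measured on repeat probes.

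**Figure D2:**
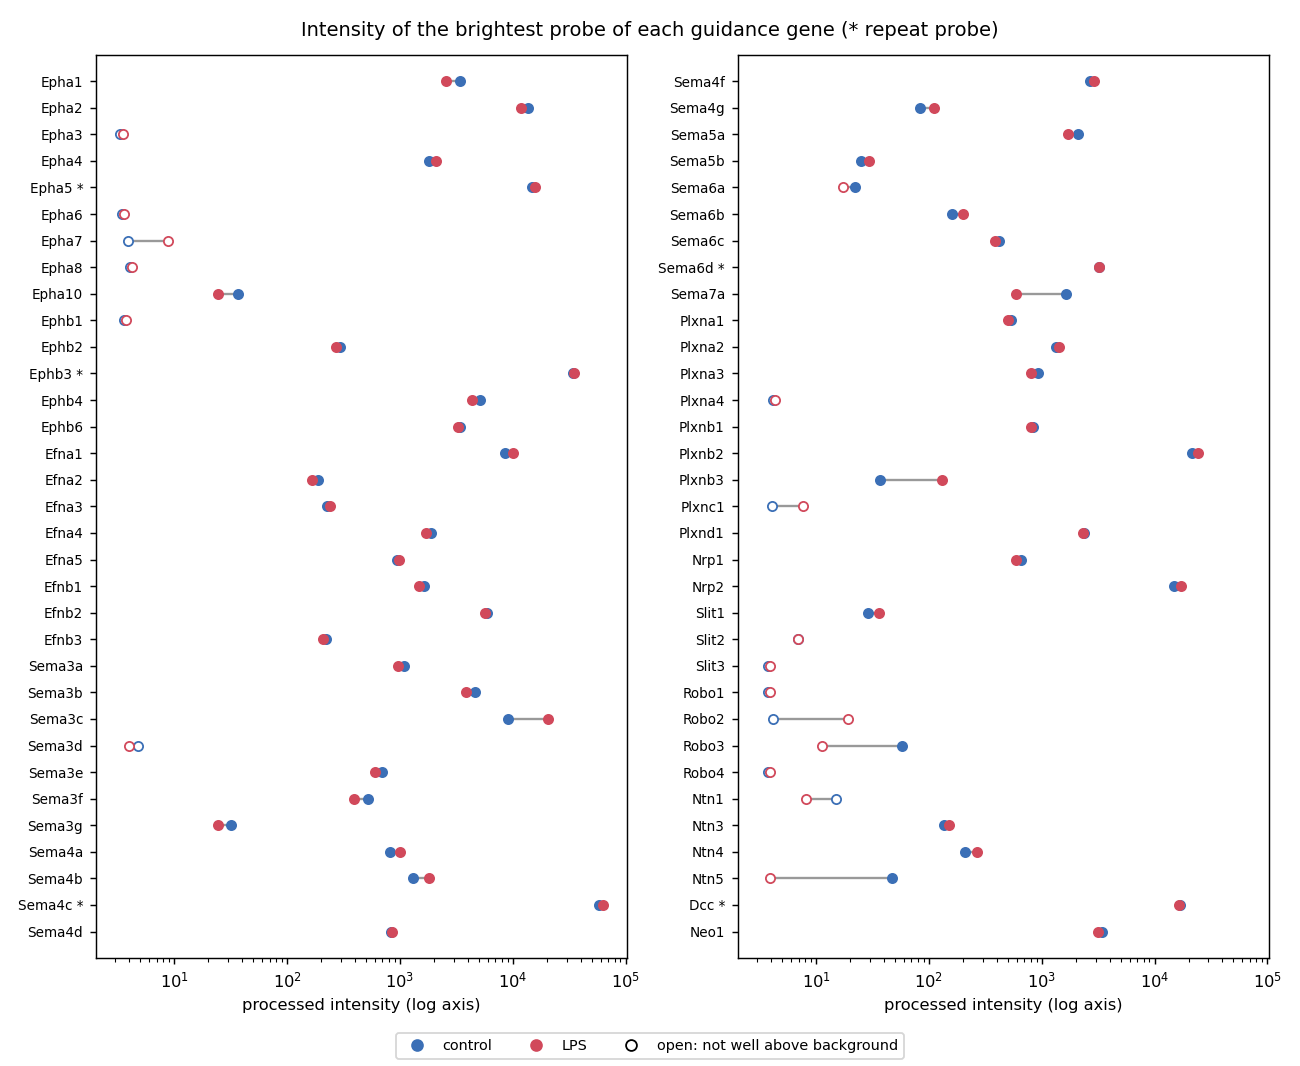
Processed intensity (log axis) of the brightest probe of each of the 66 guidance genes on the control array (blue) and the LPS array (red), 1 array each with no error bar; open circles are not well above background and an asterisk marks a probe with a tandem repeat. Most pairs overlap or nearly so; Sema3c and Plxnb3 lie to the right on the LPS array and Sema7a to the left, and intensities of different genes are not comparable.

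Of the 49 measured guidance genes, 3 differed between the arrays by 2-fold or more: 2 semaphorin genes and 1 plexin gene. Sema3c, which encodes a secreted class 3 semaphorin, was brighter on the LPS array, and Sema7a, which encodes the membrane-anchored class 7 semaphorin that binds plexin C1 and beta-1 integrins, was dimmer there. Plxnb3, which encodes a plexin that binds semaphorin 5A, was brighter on the LPS array from a low signal. In all, 2 of the 49 measured genes were at least 2-fold higher and 1 was at least 2-fold lower, while 46 were within 1.5-fold. Over all 20328 measured genes, 1.46% were at least 2-fold higher and 0.571% at least 2-fold lower. At 1.5-fold the same 3 guidance genes were counted and no other, against 3.59% higher and 2.68% lower over all genes. At 4-fold there was none. The median difference of the 49 was 0.00, beside -0.02 for all measured genes, with 26 above 0 and 23 below, beside 9054 above and 11274 below over all measured genes. That slight majority turned with the setting: it was 24 above and 25 below with quantile normalization, with the percentile over detected probes or with the median over probes, 23 and 26 with no scaling, and 21 and 23 without the repeat probes. Guidance genes as a group thus stood near the middle of the array, and the counts of 2 and 1 are too few to be read against the shares over all genes.

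**Figure D3:**
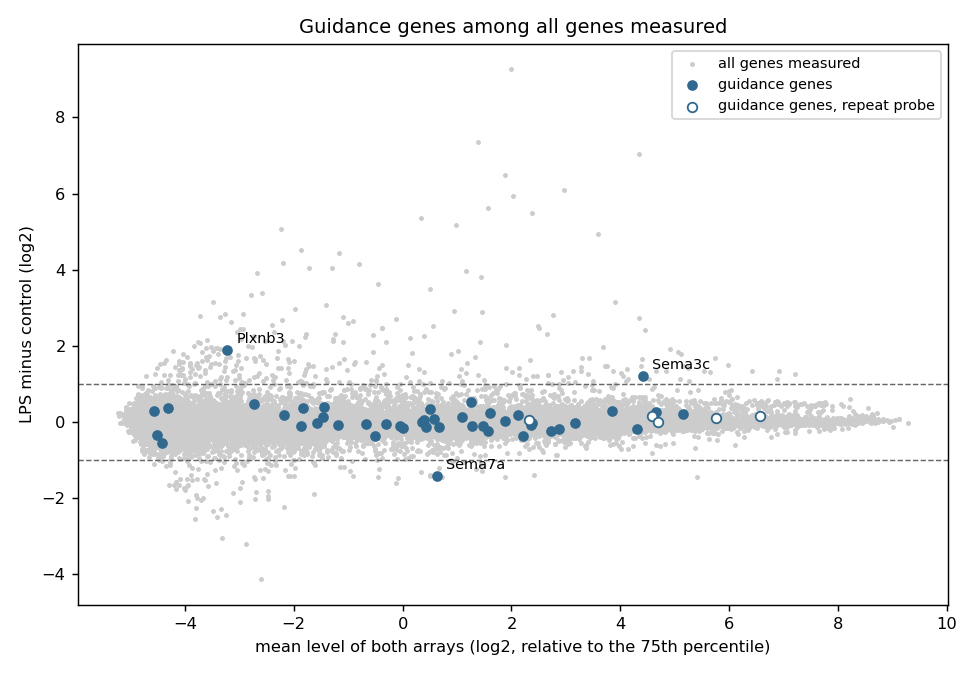
LPS minus control difference (log2, vertical axis) against the mean level of both arrays (log2 relative to the 75th percentile, horizontal axis) for the 20328 measured genes (grey) and the 49 measured guidance genes (blue, open where the probe holds a repeat); dashed lines mark 2-fold. Plxnb3 lies in the dim part, where all genes spread widely, Sema3c among the bright genes, and Sema7a below the lower dashed line.

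The Sema3c probe read 9143 with control RNA and 20389 with LPS RNA. The LPS array was thus 2.30-fold brighter, a difference of 1.20 ± 0.03. The second Sema3c probe, at another position in the gene, read 561 and 1302, a difference of 1.26. Both Sema3c probes differed in the same direction and by nearly the same amount. Among the brightest 5082 measured genes, where Sema3c lies, 0.945% were at least 2-fold higher.

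Receptor genes for class 3 semaphorins showed smaller differences, and none was tested against that of Sema3c. Nrp2, a neuropilin gene, read 14937 and 17312, a difference of 0.26 ± 0.03, and its second probe gave 0.38. Nrp1 read 657 and 591, at -0.11 ± 0.06. Plxnd1, whose product is a class 3 semaphorin receptor in vessels, read 2391 and 2341, at 0.01 ± 0.04, and the sign of this difference turned with quantile normalization, no scaling or the median over probes. Among the type A plexins, which pair with neuropilins, Plxna1 stood at -0.06 ± 0.06, Plxna2 at 0.13 ± 0.06 and Plxna3 at -0.15 ± 0.06. A second measured Plxna2 probe read 194 and 188, and the median over both probes was 0.06. That second probe lies on chromosome 13 by its mm9 position, whereas RefSeq places Plxna2 on chromosome 1. Plxna4 was above background on neither array. Of these 7 receptor genes, 6 were measured on both arrays, and none of the 6 differed by 1.5-fold.

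None of the other 5 measured class 3 genes differed by 1.5-fold, and Sema3d was above background on neither array. Sema3f, which encodes a neuropilin 2 ligand, read 523 and 390, at -0.38 ± 0.06. Sema3b, its chromosomal neighbour, read 4669 and 3866, at -0.23 ± 0.04. Sema3e, whose product binds plexin D1 directly, read 696 and 600, at -0.17 ± 0.06. Sema3a, the gene of the classical collapsin, stood at -0.13 ± 0.06, with its second probe at -0.03, and the dim Sema3g at -0.34 ± 0.13 (-0.07 with normexp background correction). These 5 genes lay below 0, as did 11274 of all 20328 measured genes. Sema3a and Sema3e lie within 1669.6 kb of Sema3d on chromosome 5, and Sema3c lies further along the same chromosome.

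Sema7a read 1654 with control RNA and 595 with LPS RNA. It was thus 2.70-fold lower on the LPS array, a difference of -1.43 ± 0.06. The gene has only this probe. Among 5082 measured genes of similar brightness, 14 (0.275%) were at least 2-fold lower. Its plexin receptor gene, Plxnc1, was well above background on neither array, with 4.10 and 7.61 on the brighter of its 2 probes. The integrin subunit genes of its other receptor were measured: Itgb1 read 8686 and 7899, at -0.09 ± 0.03, and Itga1 read 63.1 and 75.3, at 0.30 ± 0.13. Sema7a was therefore the only one of the 49 measured guidance genes at least 2-fold lower.

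Class 4 semaphorins are membrane proteins that bind type B plexins. None of the 6 measured class 4 genes reached 1.5-fold. All 6 lay above 0 on their brightest probes, 1 of them a repeat probe (Sema4c) and 1 with a sign that turned over the median of its probes (Sema4d), beside 9054 of all 20328 measured genes. Sema4b read 1302 and 1812, at 0.52 ± 0.04. Sema4a, known for roles in immune cells, read 817 and 998, at 0.33 ± 0.06. The dimmer Sema4g read 83.8 and 112, at 0.47 ± 0.13, and 0.30 with normexp. Sema4f stood at 0.17 ± 0.04. Sema4d, a ligand of plexin B1, stood at 0.06 ± 0.06 on its brightest probe but at -0.48 on its dim second one, and at -0.21 over the median of both. The Sema4c probe, which holds a repeat, stood at 0.16. The sign of the other 5 held under the 6 alternatives of correction, scaling and probe rule. The family median was 0.25 with the Sema4c repeat probe included.

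Plexins, the receptors, were mostly alike on the arrays. Plxnb3 read 36.6 with control RNA and 130 with LPS RNA, 3.67-fold brighter, a difference of 1.88 ± 0.13. With normexp it was 0.95 and so no longer past 2-fold. At this low signal the offset of 50 alone lowers the difference, and its part in that shift was not separated from that of the background. Plxnb3 has 1 probe and lies among the dimmest 5082 measured genes, of which 2.36% were at least 2-fold higher. Its ligand gene Sema5a read 2111 and 1719, at -0.25 ± 0.04. Among its relatives, Plxnb1 read 830 and 807, at 0.00 ± 0.06 with a sign that turned with scaling, and Plxnb2 read 21560 and 24215, at 0.21 ± 0.03. Plxnb3 was thus the only one of the 3 type B plexins to differ by 2-fold on these arrays. Classes 5 and 6 gave the remaining semaphorins. Sema5b stood at 0.29 ± 0.13 (0.02 with normexp), Sema6b at 0.36 ± 0.13 and Sema6c at -0.07 ± 0.13. The dimmer second Sema6c probe read 116 and 88.6, at -0.34, and the median over both probes was -0.21. Sema6a passed the background mark with 22.0 on the control array but not with 17.4 on the LPS array, which gives a bound of at least 1.22-fold lower after LPS.

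**Figure D4:**
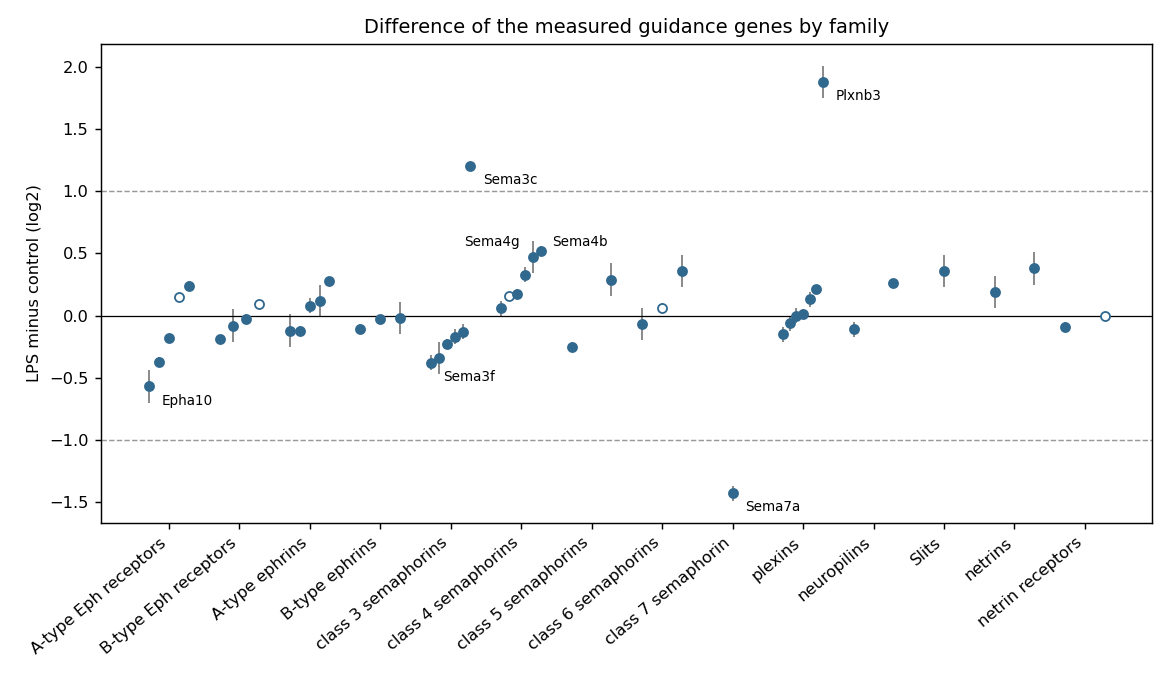
LPS minus control difference (log2) of each of the 49 guidance genes measured on both arrays, by family; bars are the SD over repeated spots of probes of similar brightness, open points are probes with a tandem repeat and dashed lines mark 2-fold. Plxnb3 (1.88) and Sema3c (1.20) lie above the upper line, Sema7a (-1.43) below the lower one, and the others between -0.57 (Epha10) and 0.52 (Sema4b).

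No Eph receptor or ephrin reached 1.5-fold. Of 14 Eph receptor genes 9 were measured, with a median of -0.08. The 9 and their median include Epha5 and Ephb3, whose values come from repeat probes. Epha1 read 3418 and 2572, at -0.37 ± 0.04. Epha2, which encodes a receptor abundant in epithelial cancers, read 13676 and 11726, at -0.18 ± 0.03. Epha4 was the highest, with 1817 and 2076, at 0.24 ± 0.04. Epha10, which encodes a receptor without kinase activity, was the lowest at -0.57 ± 0.13, from 36.9 to 24.2, and stood at -0.13 with normexp. Epha5, on its repeat probe, stood at 0.15.

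The measured B-type Eph receptor and ephrin genes all differed by less than 1.5-fold on their brightest probes, which for Ephb3 is a repeat probe. Ephb2, a receptor of crypt progenitors, read 295 and 270, at -0.08 ± 0.13. Ephb4, the receptor for ephrin B2, read 5073 and 4311, at -0.19 ± 0.03, with its second probe at -0.20. Ephb6, another kinase-inactive receptor gene, stood at -0.03 ± 0.04, and its dim second probe at -0.43. The Ephb3 signal, on a repeat probe, stood at 0.09. Among the B-type ephrins, Efnb1 read 1635 and 1466, at -0.11 ± 0.04. Efnb2 read 5956 and 5663, at -0.03 ± 0.03, and its dim second probe gave -0.28. Efnb3 stood at -0.02 ± 0.13, a sign that quantile normalization turned.

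A-type ephrins are held by a lipid anchor and bind EphA receptors. Efna1, a gene that inflammatory cytokines are known to raise in endothelium, read 8501 and 10001, at 0.28 ± 0.03, and was the highest ephrin. Efna5 stood at 0.08 ± 0.06, Efna3 at 0.12 ± 0.13, Efna2 at -0.12 ± 0.13 and Efna4 at -0.12 ± 0.04. Efna1, Efna3 and Efna4 are neighbours on chromosome 3, with mm9 probe starts at 89075703, 89118981 and 89138180, and Sema4a lies in the same 898.3 kb. Of these 4 neighbours, 3 lay above 0 and Efna4 below, all under 1.5-fold.

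Slit and Robo genes gave little signal in these cells. Slit1 was measured at a low level, with 28.9 and 35.8, a difference of 0.36 ± 0.13 (0.13 with normexp). Robo3, which encodes a divergent Robo receptor, read 57.9 with control RNA and 11.2 with LPS RNA, where it was not well above background. That gives a bound of at least 3.31-fold lower after LPS, or 1.53-fold with normexp. Its second probe was above background on neither array. Each bound divides the control level by the probe's own LPS level or by the dimmest level that still passed the background mark there, whichever is higher. That dimmest level was 16.9, yet Sema6a did not pass with 17.4 on the same array. The mark thus differs between spots, and all such bounds in this text are approximate.

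Among the netrins, Ntn1, the founding member of its family, was above background on neither array, with 15.0 and 8.14. Ntn5 read 47.3 and 3.87, a bound of at least 2.71-fold lower after LPS, or 1.51-fold with normexp. Robo3 and Ntn5 were thus 2 of 3 guidance genes seen on the control array only whose bound passed 2-fold. Of 946 such genes on the whole array, 19.2% had a bound of at least 2-fold. Ntn4, a laminin-related netrin of basement membranes, read 210 and 266, at 0.38 ± 0.13, and Ntn3 stood at 0.19 ± 0.13. The netrin receptor gene Neo1 read 3451 and 3151, at -0.09 ± 0.04. The Dcc signal on its repeat probe, with 16878 and 16369, stood at 0.00 with a sign that turned with scaling, and its other probes were above background on neither array.

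**Figure D5:**
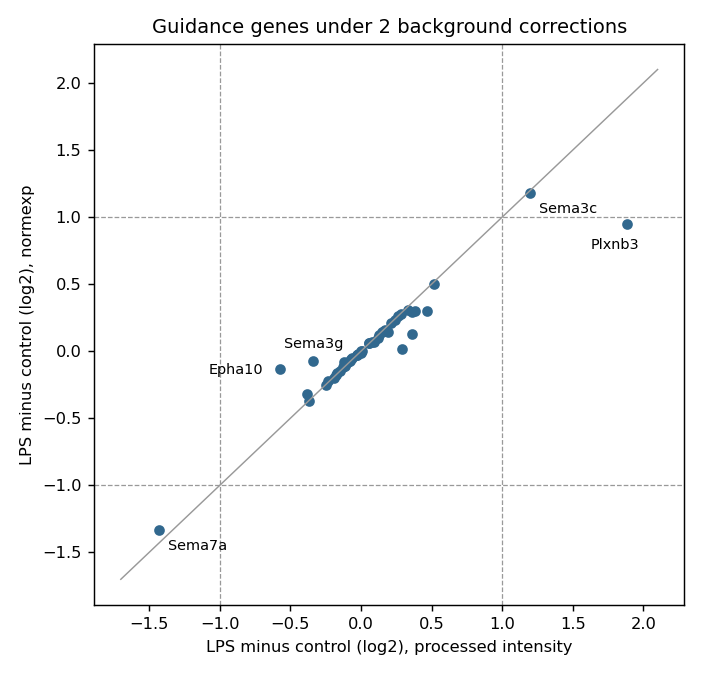
Difference (LPS minus control, log2) of the 49 measured guidance genes from the processed intensity (horizontal axis) and after normexp background correction of the mean signal (vertical axis), 1 point a gene, with dashed lines at 2-fold and a solid line of equality. Sema3c (1.20 and 1.18) and Sema7a (-1.43 and -1.33) stay near the line, whereas Plxnb3 (1.88 and 0.95) and dim genes such as Epha10 (-0.57 and -0.13) move towards 0. The normexp values include an offset of 50, which by itself moves dim genes towards 0.

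Genes that act downstream of these receptors, and guidance genes outside the name rule, were described from 4 lists. Of 24 semaphorin and plexin effectors, 21 were measured, 1 was at least 2-fold higher and none lower, with a median of 0.15. Over all measured genes these shares were 1.46% and 0.571%, with a median of -0.02. The higher one was Rnd1, which encodes a small GTPase that binds plexins, with 864 and 2454, a difference of 1.55 ± 0.06 (1.48 with normexp). The lowest was Mical1, which encodes an actin-oxidising enzyme, at -0.47 ± 0.04. Of 20 Eph and ephrin effectors on the array, 19 were measured and none reached 2-fold, with a median of 0.01. They ran from Ngef, the gene of the Eph-linked exchange factor ephexin, at -0.65 ± 0.04 to the phosphatase gene Ptpn13 at 0.46 ± 0.04. All 18 Slit, Robo and netrin effectors were measured and none reached 2-fold, with a median of -0.10. They ran from the Robo-binding GTPase regulator gene Srgap1, at -0.38 ± 0.04, to the actin-binding protein gene Ablim1, at 0.74 ± 0.06 on its brightest probe and at 0.08 over the median of its probes. Of 22 other guidance genes on the array 6 were measured, none at 2-fold. They ran from Flrt1 at -0.59 ± 0.13 to Rgmb, a neogenin ligand gene, at 0.34 ± 0.13. With normexp Flrt1 stood at -0.24 and Rgmb at 0.28. Among the UNC5 netrin receptor genes, Unc5b was measured, with 2907 and 1915, at -0.56 ± 0.04, and Unc5a, Unc5c and Unc5d were above background on neither array.

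Facts of the arrays that touch these values are few. The background mark was passed by 55.8% of non-control spots for control RNA and 54.7% for LPS RNA, none was saturated, and the file headers give both arrays the same scan time. Of 12 epithelial markers 11 were measured, and all 11 lay below 0, beside 11274 of all 20328 measured genes. They ran from Krt20 at -0.92 ± 0.13 (176 and 90.6) and Vil1 at -0.72 ± 0.06 (717 and 423) to Cdh1 at -0.01 ± 0.03. With normexp Krt20 stood at -0.61 and Vil1 at -0.63. Cdh1 stood at 0.00 when each array was set to its median, and Epcam stood at -0.56 ± 0.03 in the main setting. Summed over every listed marker on the array, those at background included, epithelial intensity was 767960 for control and 663219 for LPS. For neurons and glia 5 of 12 markers were measured (summed likewise, 17139 and 16108). Tubb3 was the highest at 0.69 ± 0.13 (62.5 and 98.0), or 0.46 with normexp. For macrophages 4 of 9 were measured (10315 and 10755), from Fcer1g at -0.18 to Cd68 at 0.30, and for lymphocytes 4 of 8 (4094 and 3887), from Nkg7 at -0.09 to Cd79a at 0.13. For fibroblasts 2 of 8 were measured (230 and 271). Col1a1 stood at 0.33 ± 0.13 (106 and 129) and Col1a2 at 0.91 ± 0.13 (60.7 and 110). With normexp Col1a1 stood at 0.24 and Col1a2 at 0.52. For endothelium 3 of 8 were measured (6861 and 6764), from Egfl7 at -0.06 to Kdr at 0.05, with Pecam1 at 71.4 and 70.7. The background mark was passed with control RNA alone by Ptprc, the pan-leukocyte gene (52.9 and 14.7, at least 3.03-fold lower after LPS), and Pdgfra (34.6 and 4.41, 1.96-fold). It was passed with LPS RNA alone by the neuronal gene Rbfox3 (8.56 and 94.3, at least 6.11-fold higher) and Mpeg1 (16.5 and 24.4, 1.52-fold). Within the sums, the macrophage gene Itgam (7516 and 7780) and the neuronal gene Snap25 (5737 and 5641) lie on probes with a tandem repeat of 20 bases. The part of other cell types in the guidance gene differences was not tested.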

How the data were processed

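Spot intensity values were deposited by the authors after Agilent's Feature Extraction software (version 10.10.1.1), as the file headers state: background-subtracted and detrended, on a design with mm9 coordinates. Flags of 0 or 1 (listed as other values), deposited beside them, mark spots above background. From these, 223 spots marked as outliers and all control spots were left out. Intensities were put on the log2 scale and each array's 75th percentile was subtracted (651 for control and 631 for LPS). Spots of a probe were averaged, and a gene took its brightest probe by the mean of both arrays. Gene names are those of the array design; 63 of 66 members matched the RefSeq table of GRCm38.p6 by accession, all with the same symbol, and no position was taken from it beyond the chromosome. Exon and untranslated region annotation was not used here. Members and gene lists were chosen with earlier results of these data known. Named were members at least 1.5-fold different, their ligands or receptors, bounds of at least 1.5-fold, the extremes of each family and pathway list, pathway list members at least 2-fold different, and the markers Epcam, Cdh1, Ptprc, Pecam1, Col1a1 and Tubb3; any other gene named was picked with its values known. The size rule was run on simulated data whose only noise was the SD over repeated spots. That run leaves out variation between cultures and arrays, so it cannot test the calls made here. Alternatives used R 4.3.3 with limma 3.58.1 (normexp with an offset of 50) and Python 3.11.15 with numpy 2.4.6, pandas 2.3.3 and matplotlib 3.10.9. Both samples carry 1 identical treatment text; dose and time were read as those of the LPS sample. Nothing says that the samples came from separate cultures.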

Additional observations from a re-analysis of the deposited data

How the results depend on the processing

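The number of arrays limits the precision. Sema3c and Sema7a kept their direction and stayed past 2-fold under every background correction, scaling, probe rule and filter tried, with Sema3c between 1.16 and 1.23 and Sema7a between -1.48 and -1.33. The guidance genes at least 2-fold higher numbered 1 with normexp and 1 among the brighter genes, against 2, since Plxnb3 was then at 0.95 or left out. The normexp offset of 50 by itself lowers the dim Plxnb3 and could hardly move the brighter Sema3c and Sema7a. Without the background filter 4 were higher and 3 lower, with a median of 0.063 against 0.005, and with the looser background flag 2 were lower; these filters admit further genes. Over all genes the shares without the filter were 3.92% higher and 3.39% lower, with a median of 0.05, with the looser flag 3.03% and 2.25%, with normexp 0.836% and 0.182%, and among the brighter genes 0.925% and 0.148%, against 1.46% and 0.571%. At 4-fold the counts were 0 and 0. Leaving out Dcc, or the members' repeat probes, both chosen after seeing the data, kept Plxnb3, Sema3c and Sema7a as the genes past 2-fold. Of 49 measured members, 44 kept their sign under 6 alternatives of correction, scaling and probe rule; the others were Efnb3, Plxnb1, Sema4d, Dcc and Plxnd1. No paired analysis was possible because each group has 1 array.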

Other observations

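Tandem repeat probes were not particular to the guidance genes, and the values here describe the array. In all, 152 gene names took their value from such a probe. Of these, 67 had a further probe without a repeat, and for 20 of the 67 no further probe was well above background on either array. Differences between the arrays on the 159 repeat probes above background on both lay between -0.40 and 0.26, with a median of 0.06. Those of the 28895 other such probes ran from -4.14 to 9.26, with a median of -0.03. The 2 ranges are not alike in number of probes or in brightness, so their widths cannot be compared. Whether such probes read the named transcript was not tested.

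Without the background filter, Robo2 (4.19 and 19.3) and Epha7 (3.85 and 8.85) would pass 2-fold in the direction of LPS, though neither was well above background there.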
